A study of Mus musculus with 6 samples.

Results

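The mouse Hox genes are transcription factor genes that lie in 4 clusters, and 48 probe sets of the array, out of 45101, carried a single Hox gene symbol of the form Hoxa, Hoxb, Hoxc or Hoxd plus a number. They measured 33 of the 39 Hox genes that RefSeq lists for the mouse: 9 of 11 in the Hoxa cluster on chromosome 6, 9 of 10 in Hoxb on chromosome 11, 7 of 9 in Hoxc on chromosome 15 and 8 of 9 in Hoxd on chromosome 2. The others were not analysed here, except that Hoxb8 and Hoxd4 appeared on probe sets annotated to a neighbouring Hox gene as well. RNA came from whole kidneys of C57BL/6 mouse embryos at embryonic day 12.5, in 2 groups of 3 biological replicates with 1 array each: Ret-deficient kidneys and wild-type kidneys. Ret encodes the receptor for GDNF on the ureteric bud, the epithelial tube that branches to form the collecting ducts. The titles and genotype fields assign Ret deficiency to the embryonic kidney, while the source field assigns the knockout to the pregnant female. The titles and genotype fields were followed. Neither the allele of Ret nor litters and embryo numbers are given in the sources used here, so p-values measure the spread between these samples.

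Each Hox protein binds DNA through a homeodomain, and the order of the genes along a cluster matches the order of their expression domains along the body axis, from low-numbered genes in the head and neck to high-numbered genes in the tail. Genes with the same number in different clusters form a paralog group, and they often act redundantly. In the mouse kidney, paralog group 11 acts with Eya1 in the metanephric mesenchyme to switch on Gdnf and Six2, and loss of the whole group prevents kidney formation. Group 10 genes are known for a role in the renal stroma, and regulatory DNA of Hoxb7 is widely used to drive transgenes in the Wolffian duct and ureteric bud. Hox proteins bind many sites together with TALE homeodomain partners of the Pbx and Meis families.

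Upstream sequences from RefSeq (GRCm38.p6) are shown for 4 of the 5 tested members whose 2 groups did not overlap, Hoxb6 being named only, so that the regions next to these genes can be read beside their values. Each run holds the 250 bases before a RefSeq start site, 5′ to 3′ on the gene's strand. Capitals mark TGATNNAT, a sequence bound jointly by Hox and Pbx proteins, and AGGTCA, the core of sites bound by retinoic acid receptors. Both were searched on both strands, so that a reverse complement also appears in capitals, and no match overlapped another.
Hoxb1: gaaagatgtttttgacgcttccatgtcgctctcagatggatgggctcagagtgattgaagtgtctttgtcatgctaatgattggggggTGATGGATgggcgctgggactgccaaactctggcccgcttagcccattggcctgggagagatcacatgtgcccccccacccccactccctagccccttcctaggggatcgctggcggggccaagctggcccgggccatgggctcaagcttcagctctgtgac
Hoxa2: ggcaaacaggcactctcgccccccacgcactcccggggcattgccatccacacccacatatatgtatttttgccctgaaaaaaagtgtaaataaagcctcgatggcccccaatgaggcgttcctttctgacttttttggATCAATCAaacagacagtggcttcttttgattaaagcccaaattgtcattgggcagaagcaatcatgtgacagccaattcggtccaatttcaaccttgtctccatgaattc
Hoxd3: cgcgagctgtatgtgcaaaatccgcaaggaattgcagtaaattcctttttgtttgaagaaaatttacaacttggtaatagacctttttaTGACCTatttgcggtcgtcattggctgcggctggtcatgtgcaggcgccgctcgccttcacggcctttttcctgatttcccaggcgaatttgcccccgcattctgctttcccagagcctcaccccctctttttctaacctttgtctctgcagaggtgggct
Hoxd8: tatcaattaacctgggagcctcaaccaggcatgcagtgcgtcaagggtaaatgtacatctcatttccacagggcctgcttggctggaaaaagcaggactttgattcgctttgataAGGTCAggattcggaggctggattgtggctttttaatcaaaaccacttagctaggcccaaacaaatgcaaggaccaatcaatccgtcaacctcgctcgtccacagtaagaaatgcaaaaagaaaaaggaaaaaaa
The Hoxb1 window is chr11:96365508-96365757 on the plus strand and holds 1 TGATNNAT match, which began 162 bases before the start site used. That start site lies a few bases inside the annotated Hoxb1 gene, so the last bases of the window lie inside it too. The Hoxa2 window is chr6:52164832-52165081 on the minus strand and holds 1 such match, 111 bases before the start. The Hoxd3 window, chr2:74711743-74711992, and the Hoxd8 window, chr2:74704365-74704614, both on the plus strand, hold 1 AGGTCA match each. TGATNNAT was found in 4 of 24 Hox windows, which belong to 22 genes, and in 7.68% of all 32851 windows of the same length. AGGTCA was found in 6 of the 24 and in 14% of all windows. These matches are descriptions of the letters and not binding sites measured here.

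The deposited values are MAS5 signals, linear hybridization intensities summarised per probe set. Ret itself separated the groups: its brighter probe set read 93.3, 479.8 and 334 in the Ret-deficient kidneys, against 13315, 11042 and 10193 in the wild-type kidneys. A dimmer Ret probe set read 62.3, 96.2 and 100.7 in Ret-deficient kidneys, against 684, 684 and 527 in wild-type kidneys. Markers of ureteric epithelium differed between the Ret-deficient samples. The summed signal of 15 epithelial marker genes was 8358, 66476 and 52956 in Ret-deficient replicates 1, 2 and 3, against 73802 to 85357 in wild-type kidneys. Calb1, with the highest wild-type mean of the 15, read 128, 13353 and 20482 in Ret-deficient kidneys, against 21363, 29916 and 28457 in wild-type kidneys. Not every marker followed the sum. In Ret-deficient replicate 2, Krt18, Epcam, Wnt9b, Cdh16 and Wnt11 lay above every wild-type array. Of 14 tested markers, 7 were lower in Ret-deficient kidneys without overlap, beside 5.57% of all tested probe sets. In Ret-deficient replicate 1, 7 of these 15 markers were not above the brightest of 27 bacterial control probe sets, the gauge of background used below, against 1 or 2 on each of the other 5 arrays. The markers not above background there included Cdh1, which encodes E-cadherin, and Lhx1, at signals of 71.7 and 5.0. In whole-kidney RNA fewer cells of a type and less RNA per cell cannot be told apart.

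Wild-type kidneys expressed most of the measured Hox genes in all 4 clusters. At the high-numbered ends of Hoxb and Hoxc, Hoxb13 and Hoxc13 were not above background. A gene was counted as above background if a probe set of it exceeded the brightest bacterial control of the same array on all 3 arrays of a group. By that count 29 of the 33 measured genes were above background in Ret-deficient kidneys and 30 in wild-type kidneys, and all 29 were among the 30. Of the 48 probe sets 42, or 87.5%, were above background on all wild-type arrays, beside 55.9% of all 45037 probe sets that are not controls (54.3% of them on all Ret-deficient arrays). By cluster, 8 of 9 Hoxa genes, 7 of 9 Hoxb, 6 of 7 Hoxc and 8 of 8 Hoxd genes passed in Ret-deficient kidneys, against 9, 7, 6 and 8 in wild-type kidneys. Signals of different probe sets depend on their probes, so levels are not ranked between genes here.

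**Figure D1:**
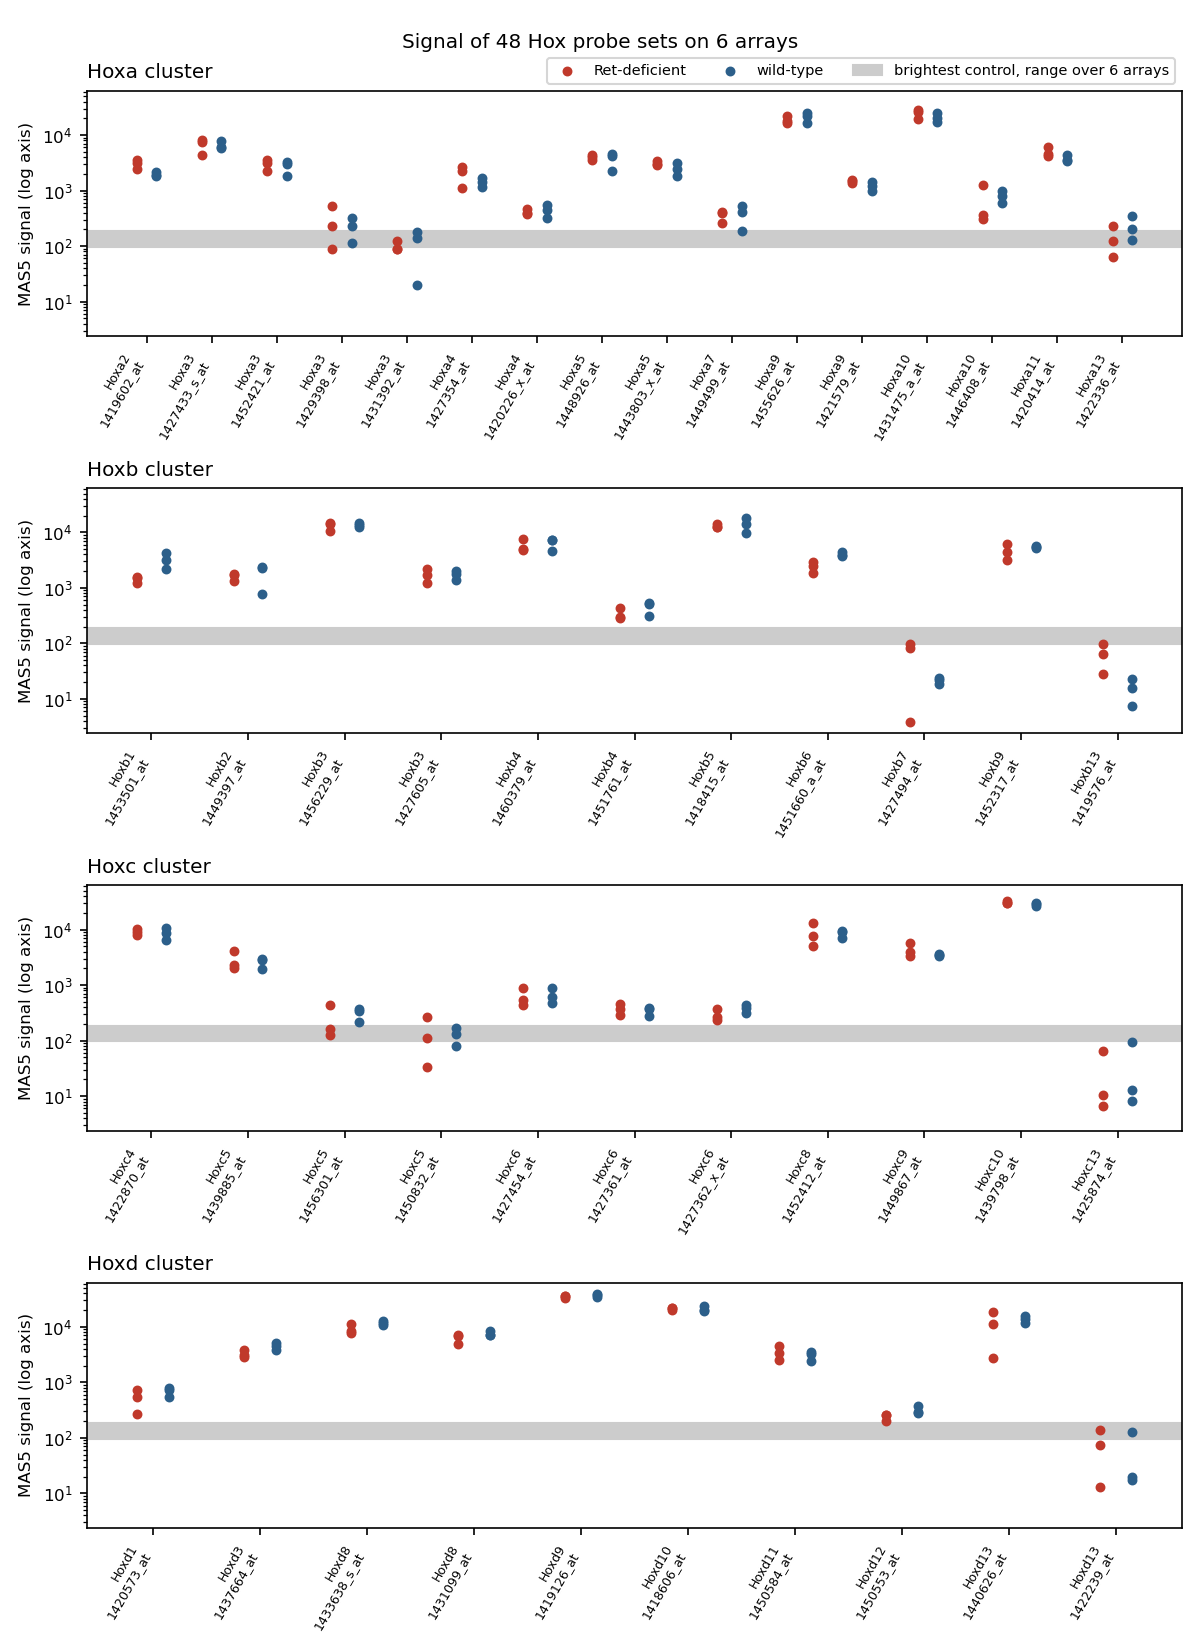
MAS5 signal on a log axis for each of the 48 Hox probe sets on each array, in cluster order, with 3 Ret-deficient arrays left and 3 wild-type arrays right of each tick; the grey band spans the brightest bacterial control over the 6 arrays, 97.2 to 186.9. Hoxb7, Hoxb13 and Hoxc13 lie below or at the band in both groups, and heights of different probe sets are not comparable.

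The low-numbered genes were above background without exception. All 10 measured genes of paralog groups 1 to 4 were above background in both groups, among them Hoxb1 and Hoxa2, which are known for their roles in the hindbrain. Of 9 measured genes in groups 5 to 8, 8 were above background in both groups. The exception was Hoxb7, whose own probe set 1427494_at read 83.7, 3.8 and 98.9 in Ret-deficient kidneys and 23.8, 21.5 and 18.6 in wild-type kidneys, never above the control of its array. A dim probe set does not show that a gene is silent. A second probe set, 1452493_s_at, is annotated to both Hoxb8 and Hoxb7, cannot be assigned to either and was named after its values were seen. It read 2663, 2618 and 3538 in Ret-deficient kidneys, against 5213, 5958 and 5336 in wild-type kidneys, so the groups did not overlap (log2 difference -0.91, SE 0.18, limma adjusted p = 0.806). The probe sets annotated to both Hoxd4 and Hoxd3 overlapped between the genotypes, with differences of -0.26 for 1421537_at and -0.48 for 1450209_at.

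Paralog groups 9 to 11 were above background throughout, with all 9 measured genes and all 11 of their probe sets. The 5 measured genes of groups 12 and 13 were mostly dim. Hoxb13 stayed at or below 98.1 and Hoxc13 at or below 92.8 on every array, under the controls. Hoxa13, a gene of the limb and the hindgut and urogenital outlet, read 63.4, 231 and 123 in Ret-deficient kidneys and 345, 130.5 and 203 in wild-type kidneys, which was above background on 1 of 3 and on 3 of 3 arrays. Hoxd12 read 256, 256 and 197 in Ret-deficient kidneys, against 281, 376 and 295 in wild-type kidneys, above background everywhere but too dim to be tested. Its groups did not overlap, as was so for 10.2% of all probe sets when dim ones were kept. Hoxd13 was the exception, with 1 bright probe set described below and 1 dim one, 1422239_at, at 12.8 to 137 in Ret-deficient kidneys and 17.3 to 127 in wild-type kidneys.

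The comparison of the genotypes asks whether the Hox expression of the kidney differs when Ret signalling is lacking. Testing was limited to probe sets whose mean signal reached the median of the array, which kept 38 Hox probe sets of 28 genes; Hoxa13, Hoxb7, Hoxb13, Hoxc13 and Hoxd12 had none. By limma with Benjamini-Hochberg adjustment at 0.05, 0 Hox probe sets were called, as were 0 (0%) of all 22519 tested. The smallest adjusted p of a Hox probe set was 0.861. Ret itself did not pass: its brighter probe set had a log2 difference of -5.43 (limma adjusted p = 0.299) and its dimmer one of -2.67 (0.188). Failing this threshold thus does not show that a gene is unchanged. At an unadjusted p under 0.05 there were 3 Hox probe sets, or 7.89%, beside 5.36% of all tested: 2 lower in Ret-deficient kidneys, beside 2.74% of all, and 1 higher, beside 2.63% of all. Groups of arrays did not overlap for 5 Hox probe sets, beside 10.8% of all tested: 4 of 38 were lower in Ret-deficient kidneys, or 10.5%, beside 5.57% of all, and 1 was higher, or 2.63%, beside 5.19% of all. These shares rest on so few probe sets that nothing particular to the Hox genes is read from them. The median log2 difference was -0.04 over the Hox probe sets, 21 negative and 17 positive, and -0.01 over all tested. The split was not stable, with 13 of 38 negative when arrays were centred on their medians and 27 of 38 with array quality weights. Of the Hox probe sets 84.2% lay within 0.5 log2 units of no difference, beside 86.6% of all tested. The median spread within groups was 0.30 log2 units for Hox probe sets and 0.29 for all tested.

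**Figure D2:**
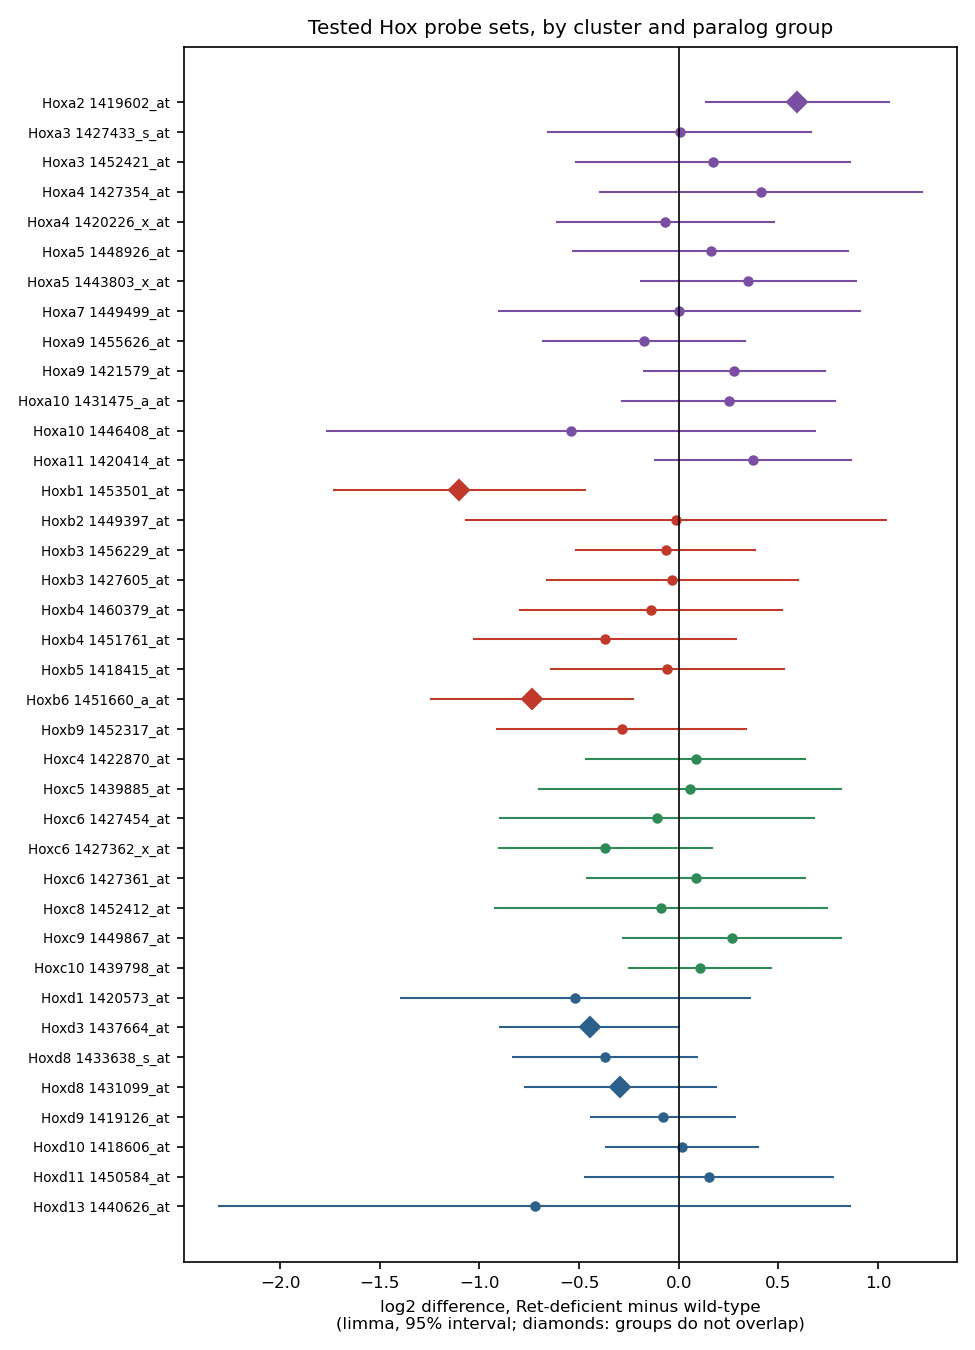
Log2 difference, Ret-deficient minus wild-type, with its 95% limma interval for the 38 tested Hox probe sets, by cluster and paralog group; diamonds mark the 5 whose groups do not overlap. Intervals of Hoxb1, Hoxb6 and Hoxa2 do not include 0 before adjustment, and the other 35 do.

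Hoxb1 had the largest difference of the tested Hox probe sets. Its probe set 1453501_at read 1578, 1506 and 1215 in Ret-deficient kidneys, against 2212, 4209 and 3116 in wild-type kidneys. Every Ret-deficient array lay below every wild-type array, and the wild-type arrays were the more spread. The means were 1433 ± 192 in Ret-deficient and 3179 ± 999.7 in wild-type kidneys (SD, n = 3 each), a log2 difference of -1.10 (SE 0.26, 95% interval -1.73 to -0.47), or 2.15-fold lower on values to which 16 had been added. The adjusted p was 0.861. When single arrays were left out, the Hoxb1 difference stayed between -1.34 and -0.88. Only this probe set represents Hoxb1 here.

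Hoxb6, the next of the Hoxb genes by p, read 1859, 2475 and 2979 in Ret-deficient kidneys, against 3746, 4362 and 3902 in wild-type kidneys. Again the groups did not overlap, and Ret-deficient replicate 1 was lowest. The means were 2437 ± 561 and 4003 ± 320.4 (SD, n = 3 each, Ret-deficient and wild-type), a log2 difference of -0.74 (SE 0.21, 95% interval -1.24 to -0.23, adjusted p = 0.861). Hoxb6 lies next to Hoxb7 and Hoxb8 in the cluster, the genes of the shared probe set above, and within the span of the antisense gene Hoxb5os. The strand each probe set reads was not examined.

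The lowest array was not the same for every measure. The epithelial sum was lowest in replicate 1, where Hoxb6 was also lowest, whereas Hoxb1 was lowest in replicate 3. Without Ret-deficient replicate 1 the difference was -1.17 for Hoxb1 and -0.55 for Hoxb6. Of the neural crest and neuron markers 4 of 7 were measured, and their summed signal was 2001 to 4299 in Ret-deficient kidneys, against 4912 to 7947 in wild-type kidneys. Sox10, which marks neural crest and glia, read 2268, 1100.4 and 1644 in Ret-deficient kidneys, against 6971, 3770.1 and 3362 in wild-type kidneys. Sox10 made up most of that sum in wild-type kidneys. Of the other measured markers, Tubb3 had a log2 difference of -1.06 and Stmn2 of 0.01, both with overlapping groups. Th, too dim to be tested, averaged 227 in Ret-deficient and 104 in wild-type kidneys. Their part in the Hoxb1 and Hoxb6 values was not tested.

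Hoxa2 was the 1 tested Hox gene higher on every Ret-deficient array. It read 3509, 3082 and 2419 in Ret-deficient kidneys, against 1946, 2128 and 1813 in wild-type kidneys. The means of 3003 ± 549 and 1962 ± 158 (SD, n = 3 each, Ret-deficient and wild-type) gave a log2 difference of 0.60 (SE 0.19, 95% interval 0.14 to 1.05, adjusted p = 0.861). The summed signal of 9 measured renal stroma markers was also higher on every Ret-deficient array, at 111872 to 126116, against 88030 to 107229 in wild-type kidneys, but the median deviation of these markers overlapped, at 0.15, 0.01 and 1.05 in Ret-deficient and 0.13, -0.17 and 0.07 in wild-type kidneys. Of the 9, only Foxd1 and Dcn did not overlap between the genotypes, both higher in Ret-deficient kidneys, beside 5.19% of all tested probe sets. Col1a1, Col3a1 and Pdgfra, which had the highest means of the 9, overlapped. The part of these markers in the Hoxa2 value was not tested. The paralog Hoxb2 had the widest log2 range in wild-type kidneys among the tested Hox probe sets. It read 1349.5, 1734 and 1742 in Ret-deficient kidneys and 768, 2378 and 2288 in wild-type kidneys, where replicate 1 alone was low. The fitted difference of Hoxb2 was -0.01 (95% interval -1.07 to 1.04) and -0.54 without wild-type replicate 1.

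In the Hoxd cluster 2 of the tested probe sets were lower on every Ret-deficient array by small amounts. Hoxd3, which patterns the neck vertebrae in the mouse, read 2882, 3119 and 3768 in Ret-deficient kidneys, against 3809, 5011 and 4509 in wild-type kidneys, and the nearest arrays of the groups differed by little. Its log2 difference was -0.45 (SE 0.19, 95% interval -0.89 to 0.0017, adjusted p = 0.921). Hoxd8 probe set 1431099_at read 4913, 6926 and 7015 in Ret-deficient kidneys, against 7255, 8495 and 7124 in wild-type kidneys (log2 difference -0.29, SE 0.20, adjusted p = 0.947; -0.12 without Ret-deficient replicate 1). A brighter Hoxd8 probe set, 1433638_s_at, overlapped between the groups, at 8422, 7883 and 11394 in Ret-deficient and 10958, 11782 and 12654 in wild-type kidneys (log2 difference -0.37). Both Hoxd8 probe sets thus read lower on average in Ret-deficient kidneys, and neither passed.

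**Figure D3:**
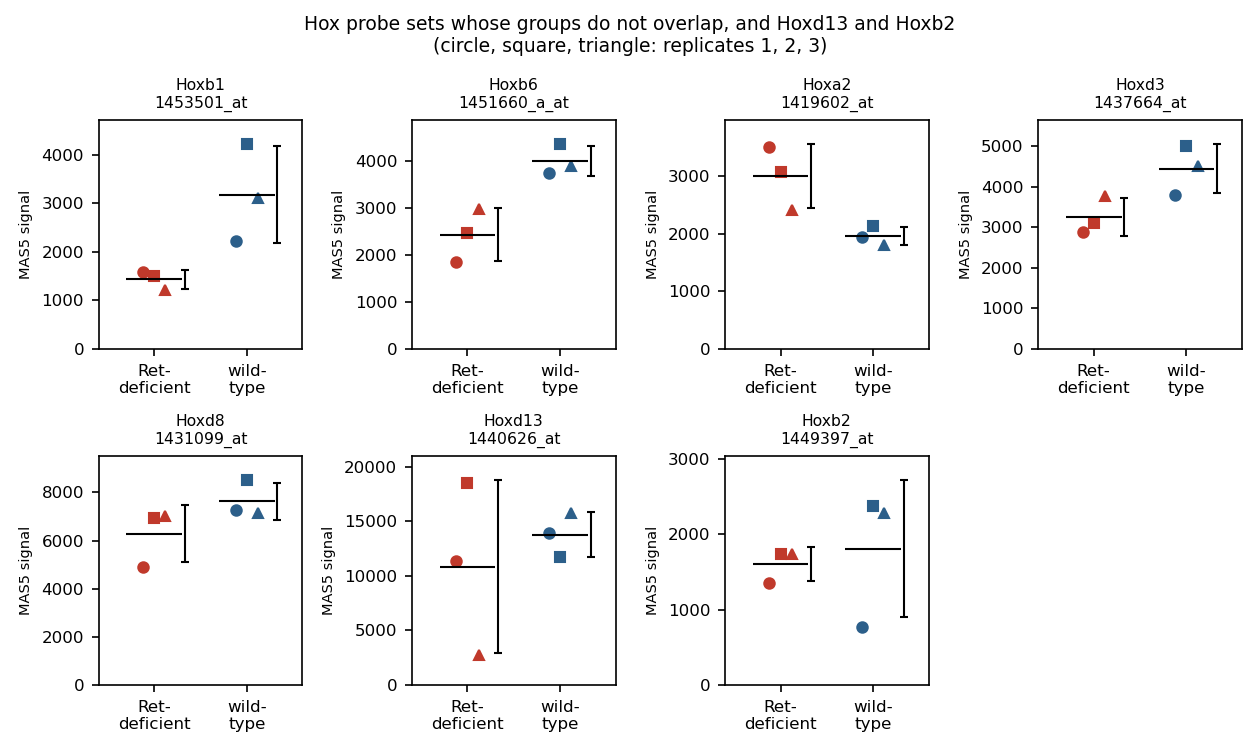
MAS5 signal on each array for the 5 tested Hox probe sets whose groups do not overlap and for Hoxd13 and Hoxb2, which among tested Hox probe sets had the widest log2 range in Ret-deficient and in wild-type kidneys; Ret-deficient left, wild-type right, lines are means and bars SD (n = 3). In Hoxd13 Ret-deficient replicate 3 stands apart at 2707, and in Hoxb2 wild-type replicate 1 stands apart at 768.

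Hoxd13, a gene of the distal limb and the caudal end of the trunk, had the widest log2 range in Ret-deficient kidneys among the tested Hox probe sets. Its bright probe set 1440626_at read 11344, 18481 and 2707 in Ret-deficient kidneys, against 13926, 11705 and 15737 in wild-type kidneys. Replicate 3 was far below all other arrays, and replicate 2 was the highest of all 6. The log2 difference of -0.72 (95% interval -2.31 to 0.86, adjusted p = 0.953) became 0.08 without Ret-deficient replicate 3. Evx1, the homeobox gene that flanks the Hoxa cluster at its Hoxa13 end, was also lowest there. It read 1467, 1469.6 and 479 in Ret-deficient kidneys, against 1578, 2074 and 2553 in wild-type kidneys (log2 difference -0.99, adjusted p = 0.924). Its groups did not overlap, and 5.57% of all tested probe sets were likewise lower without overlap. Evx2, the other Evx gene listed, was not above background on any array. Foxf1, one of 6 ureteric mesenchyme markers, read 7867, 12733 and 249.5 in Ret-deficient kidneys, against 4532, 4058 and 6356 in wild-type kidneys. Bmp4 and Ptch1 were also lowest in Ret-deficient replicate 3, at 4925 and 19645. Tbx18 was instead highest there, at 11561, and Tbx2 and Tbx3 were lowest in Ret-deficient replicate 1, at 1016 and 3125. The sum over all 6 of these markers was 52612, 70305 and 43119.6 in Ret-deficient kidneys, against 54844 to 67602 in wild-type kidneys, and all 6 were above background on every array. Their part in the Hoxd13 value was not tested.

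The high-numbered groups known for the kidney had overlapping values throughout, and with so few probe sets nothing is read from that count. Of the 11 probe sets of groups 9 to 11, none had groups that did not overlap (10.8% of all tested did not), 4 were negative and 7 positive, their log2 differences lay between -0.54 and 0.37, and all 11 intervals included 0. In group 11, Hoxa11 read 4158, 5984 and 4637 in Ret-deficient kidneys, against 3506, 3412 and 4428 in wild-type kidneys. Here 2 of 3 Ret-deficient arrays lay above all wild-type arrays, with a log2 difference of 0.37 (SE 0.21, 95% interval -0.12 to 0.86). Hoxd11 read 4477, 3308 and 2516 in Ret-deficient kidneys and 2424, 3243 and 3447 in wild-type kidneys, overlapping widely (0.15, interval -0.47 to 0.78). Neither interval shows that the genotypes are equal.

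Group 10 held members with little spread. Hoxc10 read 32440.4, 30026 and 29501 in Ret-deficient kidneys and 29389, 29512 and 26487 in wild-type kidneys, with a coefficient of variation of 5.11% and 6.01%. Hoxd10 read 19970.0, 21922 and 21559.7 in Ret-deficient kidneys and 23589, 19429 and 19903 in wild-type kidneys. For Hoxc10 the log2 difference was 0.11 (95% interval -0.25 to 0.46) and for Hoxd10 0.02 (-0.36 to 0.40), so a change of 2-fold lay outside both intervals. Hoxa10, which patterns the lumbar vertebrae and the uterus, had probe sets that differed in sign. The bright one, 1431475_a_at, read 19689, 27840.2 and 25897 in Ret-deficient kidneys and 16838, 25143 and 19925 in wild-type kidneys (log2 difference 0.25). The dim one, 1446408_at, read 369, 313 and 1243 in Ret-deficient kidneys and 785, 967 and 609.6 in wild-type kidneys, with Ret-deficient replicate 3 high (-0.54, and -1.15 without that array).

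Group 9 covers all 4 clusters. Hoxd9 read 36057, 35489 and 33216 in Ret-deficient kidneys and 39223, 37733 and 33812 in wild-type kidneys, a log2 difference of -0.08 (95% interval -0.44 to 0.28). Hoxc9 read 5771, 3356 and 3892 in Ret-deficient kidneys and 3543, 3658 and 3329 in wild-type kidneys, where only Ret-deficient replicate 1 was high (0.27). For Hoxb9 the values were 6229.8, 4332 and 3150.5 in Ret-deficient kidneys, against 5331, 5614 and 5167 in wild-type kidneys (-0.29). In both genes the Ret-deficient arrays spread far more than the wild-type arrays. Hoxa9 differed in sign between its probe sets: 1455626_at read 16752, 17565 and 21668 in Ret-deficient and 24739, 22364 and 16603 in wild-type kidneys (-0.18), and 1421579_at read 1581, 1486 and 1346 in Ret-deficient and 1001, 1452 and 1208 in wild-type kidneys (0.28).

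**Figure D4:**
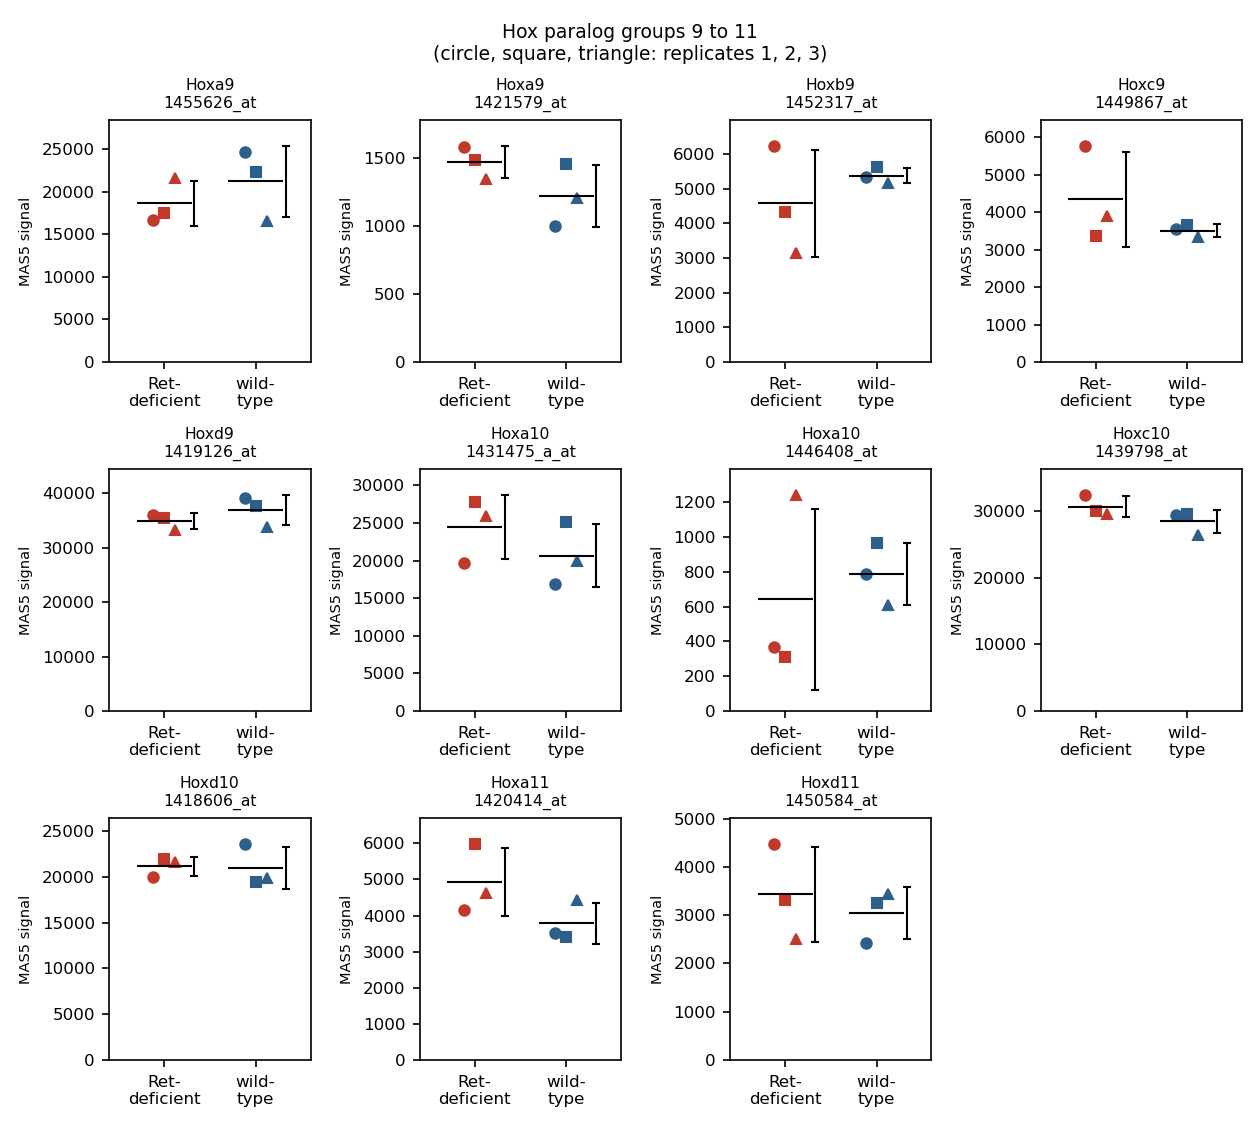
MAS5 signal on each array for the 11 probe sets of Hox paralog groups 9, 10 and 11; Ret-deficient left, wild-type right, lines are means and bars SD (n = 3). The groups overlap in all 11, and Hoxc10, Hoxd9 and Hoxd10 vary little in either genotype.

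The remaining tested members, Hoxd1 and 11 genes of paralog groups 3 to 8, had log2 differences between -0.52 (Hoxd1) and 0.41 (Hoxa4), all with overlapping groups. Hoxd1, the other measured gene of group 1 beside Hoxb1, read 544, 721 and 266.5 in Ret-deficient kidneys and 550.4, 788 and 737 in wild-type kidneys. Its Ret-deficient replicate 3 was low, and replicate 1 lay just under the lowest wild-type array. Hoxa4 probe set 1427354_at read 2621, 2283 and 1132 in Ret-deficient kidneys and 1181, 1685 and 1436 in wild-type kidneys, with 2 of 3 Ret-deficient arrays above all wild-type arrays.

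Hoxa5, known for its role in the lung, read 4341, 3481 and 3953 in Ret-deficient kidneys and 2261, 4484 and 4211 in wild-type kidneys on its brighter probe set (log2 difference 0.16). Hoxb5, which acts in enteric neural crest, read 12245, 14174 and 12713 in Ret-deficient kidneys and 9819, 17947 and 14094 in wild-type kidneys (-0.06). In both genes wild-type replicate 1 was the lowest of the 6 arrays, and the Ret-deficient arrays lay close together. Hoxb4, a gene of blood progenitors, showed that array low as well on its brighter probe set. It read 7512, 4965 and 4859 in Ret-deficient kidneys and 4532, 7414 and 7224 in wild-type kidneys (-0.14). On its dimmer probe set, 1451761_at, Ret-deficient replicate 1 was lowest instead, at 285, against 309 in wild-type replicate 1 (-0.37). Hoxa7 read 259 to 405 in Ret-deficient kidneys and 191 to 518 in wild-type kidneys, and wild-type replicate 1 was again lowest.

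In the other members the lowest array varied. Hoxb3 read 10562, 14172 and 14619 in Ret-deficient kidneys and 14609, 13680 and 12506 in wild-type kidneys (-0.06). Hoxc4 read 7999.7, 8863 and 10260.3 in Ret-deficient kidneys and 10889, 8544 and 6546 in wild-type kidneys (0.09). Hoxc8, which patterns the thoracic skeleton, read 7744, 4983 and 12888 in Ret-deficient kidneys and 9383, 9002 and 7103 in wild-type kidneys (-0.09), so its Ret-deficient arrays held both the lowest and the highest value. The brightest probe sets of Hoxa3, a gene of the pharyngeal arches, and of Hoxc5 differed by 0.01 and 0.06. The Hoxc6 probe sets were dim, at 236 to 887 in Ret-deficient kidneys and 275 to 886 in wild-type kidneys.

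Of the 9 genes with several tested probe sets, 4 had probe sets of both signs: Hoxa4, Hoxa9, Hoxa10 and Hoxc6. For Hoxa3 and Hoxc5, 2 further probe sets each were too dim to be tested. By cluster the signs were uneven, with no test of a difference between clusters. In the Hoxa cluster 10 of 13 tested probe sets were positive (median 0.17), in Hoxb 9 of 9 were negative (median -0.14), in Hoxc 5 of 8 were positive (median 0.07) and in Hoxd 6 of 8 were negative (median -0.33), beside 51.7% negative among all tested. Neighbours in a cluster share arrays and are not independent.

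Relative to the wild-type mean, the Ret-deficient medians over the Hoxb probe sets were -0.36, 0.01 and -0.36 for replicates 1, 2 and 3, and the wild-type medians were -0.46, 0.23 and 0.02. The lowest array for Hoxb was thus a wild-type one. For Hoxa the medians were 0.15, 0.27 and 0.22 in Ret-deficient and -0.26, 0.25 and 0.0015 in wild-type kidneys, again with wild-type replicate 1 lowest. For Hoxd they were -0.30, 0.01 and -0.19 in Ret-deficient and -0.09, 0.07 and 0.07 in wild-type kidneys. The cluster medians overlapped between the genotypes in every cluster. Negative Hoxb probe sets numbered 6 of 9 without wild-type replicate 2, 6 of 9 without Ret-deficient replicate 1 and 5 of 9 with arrays centred on their medians, which moved the median of all tested probe sets to 0.10. Positive Hoxa probe sets numbered 7 of 13 without wild-type replicate 1 and 6 of 13 with array quality weights.

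**Figure D5:**
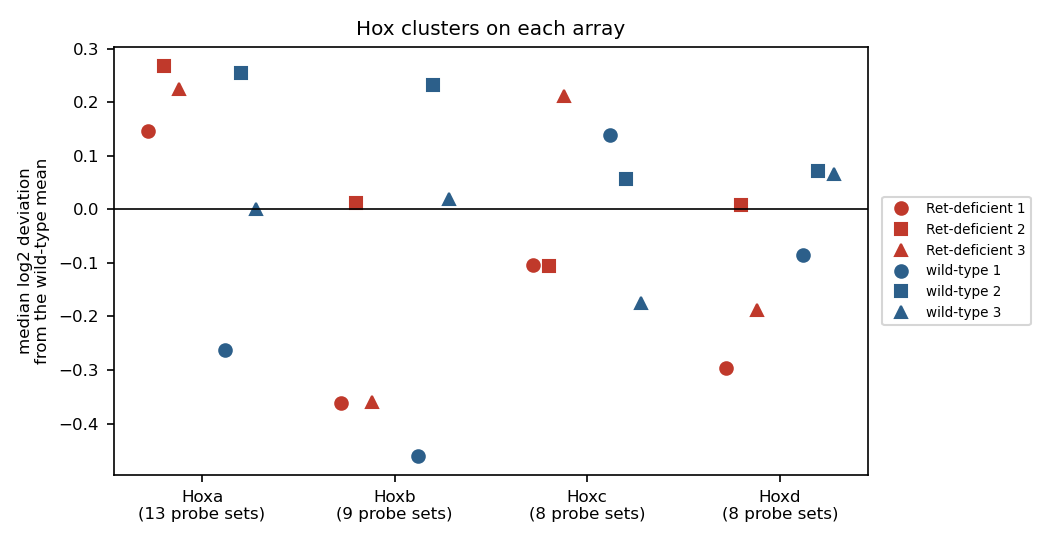
Median log2 deviation of the tested probe sets of each Hox cluster from the wild-type mean, 1 point per array, Ret-deficient left and wild-type right. Wild-type replicate 1 is the lowest of the 6 arrays for Hoxa and Hoxb, at -0.26 and -0.46, and the genotypes overlap in all 4 clusters.

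Partners and regulators of Hox genes were described from lists. Of 9 TALE cofactors 8 were measured and 7 tested; of these 4 were positive and 3 negative, the median log2 difference was 0.08, and none passed. Meis2 read 26785, 27204 and 29544 in Ret-deficient kidneys, against 24377, 26374 and 24822 in wild-type kidneys, higher on every Ret-deficient array by little (0.14, 95% interval -0.21 to 0.49). Meis1 had a difference of -0.01 (interval -0.53 to 0.50). Among 14 tested Polycomb genes, which keep Hox genes silent, 9 were negative with a median of -0.03, and among 11 trithorax and demethylase genes, which oppose them, 5 were negative with a median of 0.00018. Of these 25, 0 had an unadjusted p under 0.05, beside 5.36% of all tested, and nothing is read from so few.

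A list of mesenchyme regulators, which includes Eya1, Gdnf and Six2, varied. Of 8 tested, 7 were negative, beside 51.7% of all tested probe sets, with a median of -0.24, and none passed over all probe sets. Nothing is read from so few genes. Gdnf, the Ret ligand, read 1772, 1698 and 1799.9 in Ret-deficient kidneys, against 2777, 4442 and 3317 in wild-type kidneys, and the groups did not overlap (log2 difference -0.97, adjusted p = 0.836). Six4 read 4598, 4267 and 4376 in Ret-deficient kidneys, against 6706, 6818 and 6328 in wild-type kidneys (-0.58, adjusted p = 0.861). Six2, which keeps nephron progenitors undifferentiated, did not show this separation: it read 1209, 1186 and 1517 in Ret-deficient and 991, 1830.1 and 1232 in wild-type kidneys (-0.01). Eya1, the partner of group 11, had a difference of 0.06.

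Upstream, 6 of 13 measured regulators were bright enough to test. Cdx1, Cdx4 and Fgf8 were not above background on any array. Rarg, a retinoic acid receptor gene, read 2611, 2851 and 3066 in Ret-deficient kidneys, against 1459.5, 1483 and 1996 in wild-type kidneys (log2 difference 0.79, adjusted p = 0.861). Rxrb was also higher on every Ret-deficient array (0.36, adjusted p = 0.938), but its nearest arrays read 8869 in Ret-deficient and 8838 in wild-type kidneys. Of all tested probe sets 5.19% were higher without overlap. Rarb (-0.13) and Rxra (0.09) overlapped between the genotypes, and Rara and Rxrg were too dim to be tested. Nothing is read about these receptor genes as a group. Egr2, which activates Hoxa2 and Hoxb2 in the mouse hindbrain and is also an immediate early gene, read 3110.2, 1185 and 145 in Ret-deficient kidneys, against 179, 171 and 36.4 in wild-type kidneys. Only Ret-deficient replicates 1 and 2 stood above all wild-type arrays (2.77, 95% interval 0.15 to 5.38, adjusted p = 0.921). Egr2 was above background on 3 Ret-deficient arrays but on only 1 wild-type array, so the size of its difference depends on dim values. Of the antisense genes in the clusters Hoxa11os had a difference of -0.04, Hoxb5os -0.21 and Hoxd3os1 -0.60, all with overlapping groups.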

How the data were processed

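RNA of whole kidneys was hybridized to Affymetrix Mouse Genome 430 2.0 arrays. Per the submitters' processing notes the deposited values are MAS5 signal intensities; no source used here states the software version or scaling target. After trimming 2 percent from both ends, every array averaged 2500, with medians between 258.9 and 351.6, so the authors had scaled the intensities. The series' design text says that RNA was amplified with the NuGEN Ovation kit before hybridization.

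Values were used as log2(signal + 16), which understates changes of dim probe sets. No further normalization was done. The 64 control probe sets were left out. Genotypes were compared with limma 3.58.1 in R 4.3.3 (lmFit and eBayes, no covariates) over the 22519 probe sets at or above the median mean signal, with Benjamini-Hochberg adjustment over all of them. Gene symbols came from the platform annotation, updated with RefSeq names by gene ID; 34958 probe sets had 1 symbol, 932 several and 9211 none. A gene with several probe sets was represented in the lists by its brightest.

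Values on every array are given for probe sets of paralog groups 9 to 11 and Hoxb7. They are also given for probe sets whose groups do not overlap and for the widest spread per genotype. Of each list at most 3 genes by p and 8 fixed genes are named. Per-array values of the other Hox members, Sox10, Foxf1, the other ureteric mesenchyme markers, Cdh1, Calb1, Lhx1, Cdx1, Cdx4 and Fgf8 were added after their values were seen. The same holds for the other named epithelial markers, Evx2, Rara, Rarb, Rxra and Rxrg. The members, lists and rules were chosen with earlier results of these data known. With 3 arrays per genotype the smallest p of an exact permutation test is 0.1. The number of arrays limits the precision.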

Additional observations from a re-analysis of the deposited data

How the results depend on the processing

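The Hox results were recomputed with pseudocounts of 1 and 64, without the brightness filter, with the brightest 30 percent, with arrays quantile normalized or centred on their medians, with limma's variance trend, with weights per array, with a replicate block and without single arrays. The number of probe sets past an adjusted p of 0.05, 0 as reported and 0 at a threshold of 0.1, was 2 with median centring, 1 with the intensity trend, 2 with array weights and 0 to 1 with 1 array left out; no Hox probe set was among them, the smallest Hox adjusted p being 0.256, with array weights. Hox probe sets with an unadjusted p under 0.05 numbered 3 as reported and 6 with array weights (1208 and 2541 over all probe sets). These were 7.89% and 15.8% of the Hox probe sets, beside 5.36% and 11.3% of all. With 1 array left out they numbered 2 to 8. The 8 without Ret-deficient replicate 3 were 21.1%, beside 9.41% of all. The 6 without wild-type replicate 1 were 15.8%, beside 5.29% of all. Nothing is read from so few probe sets. Hox probe sets without overlap numbered 5 as reported, or 13.2%, beside 10.8% of all. Without the brightness filter there were 7, or 14.6%, beside 10.2% of all, with Hoxd12 and the dim Hoxb13 added. With median centring there were 3 (Hoxb1, Hoxb6 and Hoxa2), or 7.89%, beside 8.16% of all. With 1 array left out there were 8 to 11, or 21.1% to 28.9%. Fewer arrays make separation more frequent there (16.2% to 28.6% of all probe sets). The Hox median stayed between -0.13 and 0.07 (-0.087 to 0.034 with 1 array left out). Of 33 measured genes 27 exceeded 2 times the brightest control in wild-type kidneys, and 30 passed the other limits tried. Hoxb1, Hoxb6 and Hoxa2 kept their direction throughout. With median centring the sign turned for 8 Hox probe sets, those of Hoxa4 (0.045), Hoxb2 (0.099), Hoxb3 (0.048 and 0.081), Hoxb5 (0.055), Hoxc6 (0.0039), Hoxc8 (0.022) and Hoxd9 (0.034), and for Meis1 (0.0998), Six2 (0.0996) and Kmt2b (0.053). With array weights it turned for Hoxa3 (-0.18 and -0.045), Hoxa5 (-0.13), Hoxa7 (-0.35), Hoxc5 (-0.12), Hoxc6 (-0.039), Meis1 (0.12), Eya1 (-0.10) and Pknox1 (-0.22). It also turned for Hoxa7 with a pseudocount of 64 (-0.0079) and Hoxb2 with quantile normalization (0.0079). With 1 array left out differences spanned 0 for Hoxa3 (-0.17 to 0.28 and -0.085 to 0.36), Hoxa4 (-0.27 to 0.10), Hoxa5 (-0.15 to 0.34), Hoxa7 (-0.40 to 0.29), Hoxb2 (-0.54 to 0.26), Hoxb3 (-0.15 to 0.085 and -0.24 to 0.18), Hoxb5 (-0.29 to 0.15), Hoxc4 (-0.10 to 0.27), Hoxc5 (-0.25 to 0.26), Hoxc6 (-0.39 to 0.12 and -0.065 to 0.24), Hoxc8 (-0.44 to 0.24), Hoxd10 (-0.036 to 0.10), Hoxd11 (-0.058 to 0.36), Hoxd13 (-1.30 to 0.081), Meis1 (-0.12 to 0.17), Eya1 (-0.013 to 0.18), Six2 (-0.21 to 0.23), Pknox1 (-0.20 to 0.58), Meis3 (-0.040 to 0.54) and Kdm6a (-0.0042 to 0.34). The cause was not tested. Ret passed the threshold with median centring (adjusted p = 0.0343), with the trend (0.0173) and without Ret-deficient replicate 1 (0.0333). Same-numbered samples did not deviate together (correlations of 0.04, -0.04 and -0.11), and the replicate block left 3 Hox probe sets at an unadjusted p under 0.05 and 0 past the adjusted threshold.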
